A study of Mus musculus with 4 samples.

Results

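The nuclear-encoded genes of the mitochondrial respiratory chain were examined in cultured mouse keratinocytes with and without a deficiency of Ovol2. Members were the rows of the expression table whose symbol starts with Nduf, Uqcr or Atp5, the rows Sdha, Sdhb, Sdhc and Sdhd, and the rows whose symbol is Cox followed by a digit from 4 to 8 and a letter. There were 92 such rows among 23970 symbols, and 86 of them had a mean of at least 1 FPKM (fragment counts divided by transcript length and by library size) over the 4 libraries. These 86 are among the 11350 genes tested. By prefix, 45 belong to complex I (Nduf), 4 to complex II (Sdh), 8 to complex III (Uqcr), 12 to complex IV (Cox) and 17 to complex V (Atp5). The rule uses names and a mean level over both groups, not the difference between the groups.

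The libraries came from epidermal keratinocytes of newborn mice at passage 0, grown in low-calcium medium over J2-3T3 cells, a mouse fibroblast line whose division had been blocked. Per the labels these feeder cells were removed completely before RNA was isolated. The control group and the group labelled Ovol2-deficient held 2 libraries each. Ovol2 is a zinc-finger transcription factor of epithelia. The alleles, the driver of any recombination, the strain and whether animals were pooled are not given in the sources used here. Nothing there says that the 2 libraries of a group came from separate animals. The p-values thus rest on the spread between these libraries and on a variance shared across genes, not on a known spread between animals.

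The respiratory chain sits in the inner mitochondrial membrane. Complex I takes electrons from NADH and complex II takes them from succinate, and both pass them to coenzyme Q. Complex III hands them on to cytochrome c, and complex IV passes them to oxygen. Complexes I, III and IV pump protons as they work, and complex V, the ATP synthase, uses the returning protons to make ATP. Most subunits are encoded in the nucleus and imported, while a small core is encoded by mitochondrial DNA. No row for a mitochondrially encoded subunit was found in the table under the mt- symbols (0 of 13), so the balance between both genomes was not analysed here.

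Ovol2 itself stood at 2.68 and 2.14 FPKM in control cells against 1.45 and 0.941 in the deficient libraries, without overlap, and did not pass the test (log2 fold change -0.64, adjusted p = 0.129 in limma). Log2(FPKM + 1) correlated at 0.972 to 0.987 between pairs of libraries across tested genes, which are not independent replicates. The libraries held about 12400000 to 14800000 counted reads, as read from the steps between the lowest values of the authors' deposited table. Defining keratinocyte markers were present, with 11 of 11 tested. Their summed level was 7426 and 7017 FPKM in control cells against 6690 and 5800 in the deficient libraries. The summed level of 20 fibroblast or feeder markers was 360 and 346 against 463 and 500, with no listed marker at 0 in all libraries, and 15 of 16 tested members had both deficient values above both controls, against 24.1% of all tested genes. Of these 16, 2 rose in limma, Loxl1 (log2 fold change 0.69) and Pcolce (0.54), against 0.837% of all tested genes, and log2 fold changes ran from 0.23 (Sparc) to 0.74 (Twist2), with a median of 0.52. None (0) passed with the other scalings, without the variance trend or without a filter, and 7 passed at a mean of at least 5 FPKM. With 1 library left out, log2 fold changes ran from 0.60 to 0.78 for Loxl1 and from 0.50 to 0.57 for Pcolce. All 24 listed genes of the G2 and M phases had both deficient values below both controls, against 24.0% of all tested genes. In limma 13 of them fell, Mki67, Ccna2, Top2a, Cdk1, Kif11, Ube2c, Prc1, Ccnb1, Bub1, Plk1, Kif23, Foxm1 and Bub1b, against 0.511% of all tested genes. Log2 fold changes of this list ran from -0.81 (Aurkb) to -0.40 (Tpx2), with a median of -0.68. The count of 13 was 0 without deficient library 1, without deficient library 2, with quantile normalization, without the variance trend and without a filter, 2 with libraries rescaled to the same total, 20 without control 1 and 8 without control 2. Summed melanocyte markers stood at 61.6 and 67.2 FPKM against 89.9 and 83.6. The part of these shifts in the values below was not tested, and in bulk RNA fewer cells of a type and less RNA per cell cannot be told apart.

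No respiratory chain gene passed the test. Of the 86 tested members, 0 were higher and 0 lower at an adjusted p of 0.05 (limma on log2(FPKM + 1), Benjamini-Hochberg over all tested genes), against 0.837% of all tested genes called higher, 0.511% called lower and 1.35% called in either direction. At an unadjusted p under 0.05 there were 2 members, Ndufs5 and Ndufa3, or 2.33%, while 17.4% of all tested genes lay there. This count was 5 with libraries rescaled to the same total, 6 when centred on the median gene and 7 with quantile normalization. It was 7 with the replicate number as a block, 1 without a filter and 0 without the variance trend. Over all tested genes the share under these alternatives was 13.8% to 20.2%. No member (0) had an adjusted p under 0.05 in the authors' deposited table, against 4.43% of all rows with an adjusted p. The smallest among members there was 0.377, for Uqcrc1. No adjusted p is given there for the tested members Ndufs5, Ndufa4l2 and Cox6b2.

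The differences were also small in size. The median log2 fold change of the members, deficient minus control, was -0.021, with an interquartile range of -0.10 to 0.051, and 36 members lay above 0 and 50 below. The median over all tested genes was -0.0014. The median absolute log2 fold change was 0.070 for the members and 0.122 for all tested genes. Highly expressed genes are measured with less spread, so genes with a mean of at least 50 FPKM were also looked at, a level chosen after the values were seen. There the median absolute log2 fold change was 0.063 for 69 members and 0.099 for all 1685 genes. An absolute log2 fold change over 0.25 was found for 4 of 86 members (4.65%) and for 23.1% of all tested genes. These 4 were Ndufa4l2, Cox6b2, Ndufaf3 and Ndufs5. Of them, Ndufa4l2 passed the minimum of 1 FPKM only through its control mean of 1.46. At a mean of at least 50 FPKM the shares were 1.45% of members and 15.7% of all genes.

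A missed threshold does not show that levels are equal, so the intervals are given. The 95% interval of the fold change lay inside a 1.5-fold change in both directions for 81 of 86 members (94.2%), against 78.4% of all tested genes. The exceptions at 1.5-fold were Ndufa4l2, Cox6b2, Ndufaf3, Ndufs5 and Atp5s. At a mean of at least 50 FPKM the shares inside 1.5-fold were 98.6% of members and 89.4% of all genes. For a typical member the standard error of the log2 fold change was 0.105. These intervals rest on limma's shared variance with 2 libraries per group.

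**Figure D1:**
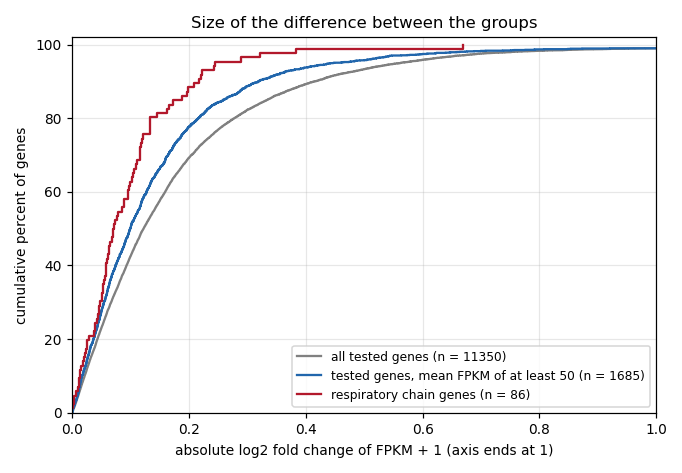
Cumulative percent of genes (vertical axis) at or below an absolute log2 fold change (horizontal axis, which ends at 1), for all tested genes, tested genes with a mean of at least 50 FPKM and the 86 respiratory chain genes. The curve of the respiratory chain genes lies to the left, with medians of 0.122, 0.099 and 0.070 in that order of sets.

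Complex I is the largest of the complexes, and 36 of the 45 Nduf genes encode its subunits. Their mean levels ran from 12.8 FPKM for Ndufa11 to 161 for Ndufa12, with a median of 83.4. In the authors' deposited table the mean normalized value of Ndufa11 was 620, above the 552 of Ndufs8, which stood at 49.1 FPKM. Ndufa11 has 1092 exon bases in GENCODE M21 and Ndufs8 has 1291, so the low FPKM of Ndufa11 is uncertain. The N module, which binds NADH, held 10 tested genes with a median log2 fold change of 0.017. Its NADH-binding subunit Ndufv1 stood at 54.1 and 52.0 FPKM in control cells against 61.4 and 55.3 in the deficient libraries (log2 fold change 0.13, SE 0.095, adjusted p = 0.539). Ndufv1 did not overlap between the groups, but the gap was smaller than the distance between the deficient libraries. Ndufs1, the largest iron-sulfur subunit, stood at 46.9 and 44.0 against 49.4 and 45.3, with overlap. The Q module, which passes electrons to coenzyme Q, held 6 genes with a median of 0.017, and 5 of them overlapped between the groups. Over all tested genes 48.1% did not overlap.

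The proximal part of the membrane arm held 9 genes, with a median log2 fold change of -0.019, and the members with the lowest and the highest log2 fold change among the subunits of complex I. Ndufs5, an accessory subunit on the intermembrane side, stood at 102.8 and 82.9 FPKM in control cells against 121 and 110.2 in the deficient libraries. Both deficient values lay above both controls, by less than the distance between the controls. Its log2 fold change was 0.32 (95% interval 0.031 to 0.61, adjusted p = 0.242), and it ran from 0.17 without control 2 to 0.47 without control 1. In the authors' deposited table Ndufs5 has a mean normalized value of 0 and no fold change, so both tables differ on this gene and its value is uncertain. Ndufa3, a small accessory subunit of the same arm, stood at 145 and 141 FPKM in control cells against 126 and 116 in the deficient libraries, also without overlap. Its log2 fold change was -0.24 (95% interval -0.46 to -0.024, adjusted p = 0.242), and that in the authors' deposited table was -0.22 (adjusted p = 0.608).

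The distal part of the membrane arm held 11 genes, 9 of them above 0, with a median log2 fold change of 0.061. Ndufb9 stood at 138 and 126 FPKM in the controls against 153 and 152 in the deficient libraries (log2 fold change 0.21, adjusted p = 0.314). Ndufb2 stood at 49.6 and 45.7 against 58.7 and 52.5 (log2 fold change 0.22, adjusted p = 0.329). Both are accessory subunits, and both were without overlap. The other 9 genes of this part overlapped between the groups. Over the 36 subunits of complex I, 6 had both deficient values above both controls and 5 had both below, while 24.1% and 24.0% of all tested genes were separated in these directions and 48.1% in either. Over all 86 members it was 7 above and 16 below.

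The 7 Ndufaf genes encode assembly factors, which help to build complex I and are not part of it. They stood much lower than the subunits, at mean levels of 3.77 (Ndufaf5) to 32.8 FPKM (Ndufaf2), with a median of 6.99 and a median log2 fold change of -0.069. Ndufaf3 stood at 7.17 and 5.98 FPKM in control cells against 5.88 and 4.56 in the deficient libraries (log2 fold change -0.29, SE 0.15, adjusted p = 0.382). The groups of Ndufaf3 were separated by less than the distance between libraries of one group. Of the exon bases of Ndufaf2, 65.6% overlap a noncoding gene on the other strand in GENCODE M21, and without strand information reads from both cannot be told apart.

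**Figure D2:**
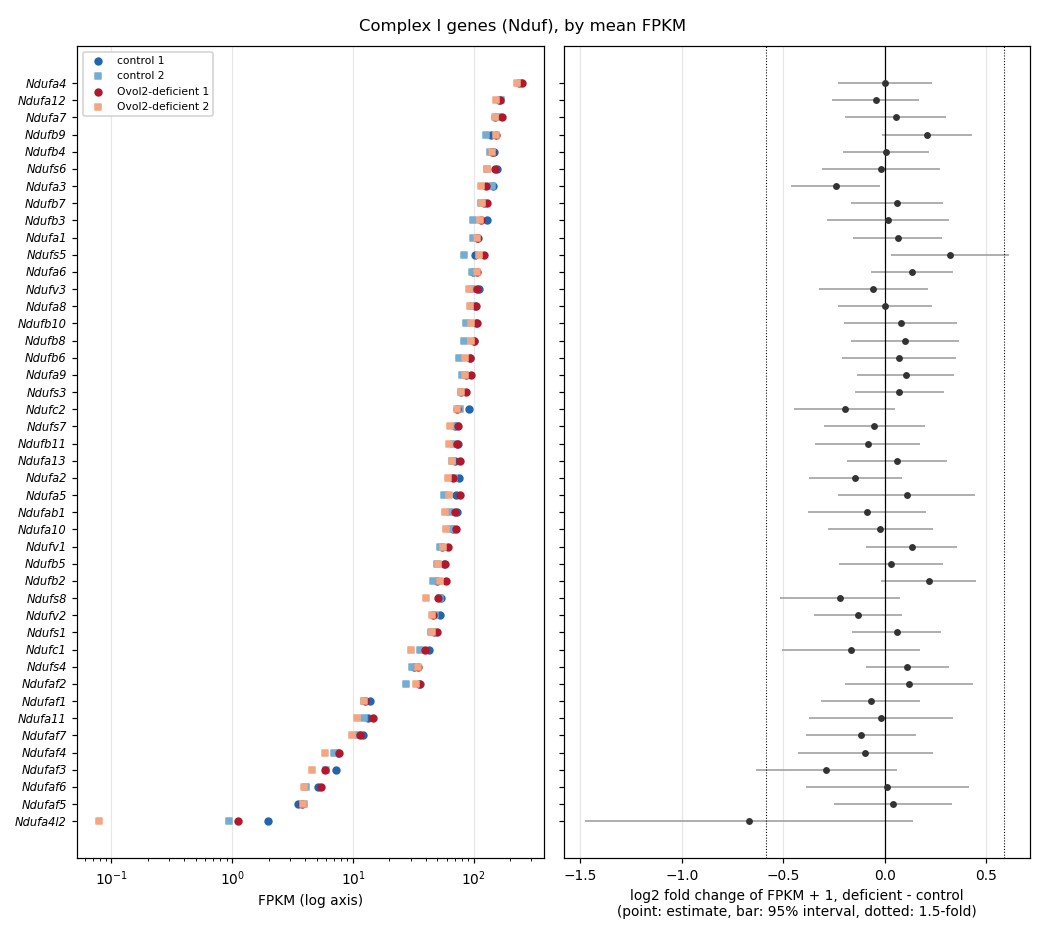
Left, FPKM (log axis) of the tested Nduf genes, 1 of which is not shown, in each of the 4 libraries, ordered by mean. Right, log2 fold change (point) with its 95% interval (bar), and dotted lines at 1.5-fold. The 4 libraries lie close together for nearly all genes. The assembly factors and Ndufa11, whose FPKM is uncertain, stand low. The widest interval is that of Ndufa4l2, from -1.48 to 0.14.

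Complex II, succinate dehydrogenase, is also an enzyme of the tricarboxylic acid cycle. Sdha, the flavoprotein that oxidises succinate, stood at 70.9 and 65.3 FPKM in control cells against 69.4 and 70.7 in the deficient libraries (log2 fold change 0.042). Sdhd, a membrane anchor, stood at 85.7 and 86.4 FPKM against 78.3 and 79.7, with pairs of libraries close together and the groups apart (log2 fold change -0.12, SE 0.085, adjusted p = 0.526). The iron-sulfur subunit Sdhb stood at 58.3 and 60.3 against 57.9 and 53.0 (log2 fold change -0.096), without overlap but with a gap smaller than the distance within a group. The median of the 4 genes was -0.096.

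The 8 genes of complex III had mean levels of 59.4 FPKM for Uqcrfs1, which carries the Rieske iron-sulfur cluster, to 282 for the small subunit Uqcr11. Their median log2 fold change was -0.022. The lowest was that of the core subunit Uqcrc1, at 175 and 165 FPKM in control cells against 157 and 141 in the deficient libraries (log2 fold change -0.19, SE 0.099, adjusted p = 0.395). In the authors' deposited table it was -0.20 (adjusted p = 0.377). Uqcrq, a small subunit next to cytochrome b, stood at 291 and 299 against 274 and 249 (log2 fold change -0.17, adjusted p = 0.428). Both genes lay without overlap, and the other 6 overlapped, while 48.1% of all tested genes did not overlap.

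In complex IV, cytochrome c oxidase, the 10 common subunits had mean levels of 107 FPKM for Cox7b to 429 for Cox8a, with a median of 246, and log2 fold changes from -0.16 (Cox7c) to 0.088 (Cox8a). Cox4i1, an early-assembling subunit that contacts the mitochondrially encoded core, stood at 343 and 325 FPKM in control cells against 350 and 324 in the deficient libraries (log2 fold change 0.013, 95% interval -0.22 to 0.25). Cox6b1, second in level, stood at 420 and 369 against 388 and 345, with overlap (log2 fold change -0.11). Cox5a, a matrix-side subunit, stood at 138 and 140 against 152 and 117, the widest distance between the deficient libraries among the common subunits on the log2 scale. Cox7c stood at 219 and 202 against 191 and 185, without overlap (adjusted p = 0.443). Ndufa4, named for complex I but now placed in complex IV, stood at 237 and 242 against 253 and 228 (log2 fold change 0.0024). Cox7a2l, which links complexes III and IV in supercomplexes, stood at 194 and 162 against 190 and 179 (log2 fold change 0.054).

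Several complex IV subunits have a second isoform that is known from lung, heart, skeletal muscle or testis. These restricted isoforms were almost absent from the keratinocyte libraries. Cox8b, Cox8c and Cox7b2 were listed at 0 in all 4 libraries. Cox7a1, the heart and muscle isoform, was listed at 0 in 3 libraries and at 0.315 FPKM in deficient library 2, while its common counterpart Cox7a2 stood at 128 and 114 FPKM in control cells against 121 and 111 in the deficient libraries. Cox4i2, the lung isoform, reached at most 0.115 FPKM. Cox6a2, the muscle isoform of Cox6a1, stood at 0.432 and 0.405 in control cells against 0.981 and 1.43 in the deficient libraries and was not tested, since its mean of 0.812 FPKM lay just outside the minimum. Cox6b2, the testis isoform of Cox6b1, had 3.31 FPKM in control 2 and 0.780 in control 1, with 1.07 and 1.17 in the deficient libraries. Just inside the minimum, at a mean of 1.03 FPKM, was Ndufa4l2, a paralog of Ndufa4 that is known to be induced by hypoxia. Its group means were 1.46 FPKM in control cells and 0.597 in the deficient libraries. Ndufa4l2 thus passed the minimum only through the controls, and its difference cannot be read apart from that filter. It stood at 1.98 and 0.935 FPKM in control cells against 1.12 and 0.0784 in the deficient libraries, so that the groups overlapped (log2 fold change -0.67, 95% interval -1.48 to 0.14, adjusted p = 0.382). Its values without 1 library ran from -1.16 to -0.18, and those of Cox6b2 from -1.02 to 0.25, with an adjusted p of 0.0239 without control 1.

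Complex V held the gene with the highest level among all members, Atp5b, the catalytic beta subunit, at 470 and 465 FPKM in control cells against 462 and 428 in the deficient libraries. Its partner alpha subunit Atp5a1 stood at 324 and 315 against 304 and 292, Atp5d at 220 and 215 against 214 and 189, and the central stalk subunit Atp5c1 at 176 and 164 against 157 and 152. All 5 genes of the catalytic F1 head lay below 0, as did 5723 of the 11350 tested genes. Log2 fold changes of the 5 were -0.13 to -0.072. Of these, 4 had both deficient values below both controls, against 24.0% of all tested genes. Adjusted p-values were 0.523 or higher. Leaving out any 1 library gave values of -0.13 to -0.072 for Atp5a1 and -0.13 to -0.019 for Atp5b, on the same log2 scale. With quantile normalization that of Atp5b was 0.026. The median over all 17 Atp5 genes changed sign, to 0.0047 without control 1 and 0.022 without deficient library 2.

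The membrane ring of complex V is built from identical mature proteins encoded by 3 genes, Atp5g1, Atp5g2 and Atp5g3, so the share of each is uncertain where reads match more than one. Atp5g3 stood at 253 and 256 FPKM in control cells against 260 and 236 in the deficient libraries. Atp5g2 stood at 248 and 225 against 233 and 217. Atp5g1 was lower, at 113 and 116 against 111 and 89.4 (log2 fold change -0.20, SE 0.12, adjusted p = 0.463). The 7 genes of the peripheral stalk and the membrane part had a median log2 fold change of -0.012. All of them overlapped between the groups, while 48.1% of all tested genes did not. Atp5s and Atp5sl carry the prefix but encode no subunit of the enzyme. They stood at mean levels of 4.23 and 8.03 FPKM, with log2 fold changes of 0.24 and -0.22 (adjusted p = 0.475 and 0.528).

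**Figure D3:**
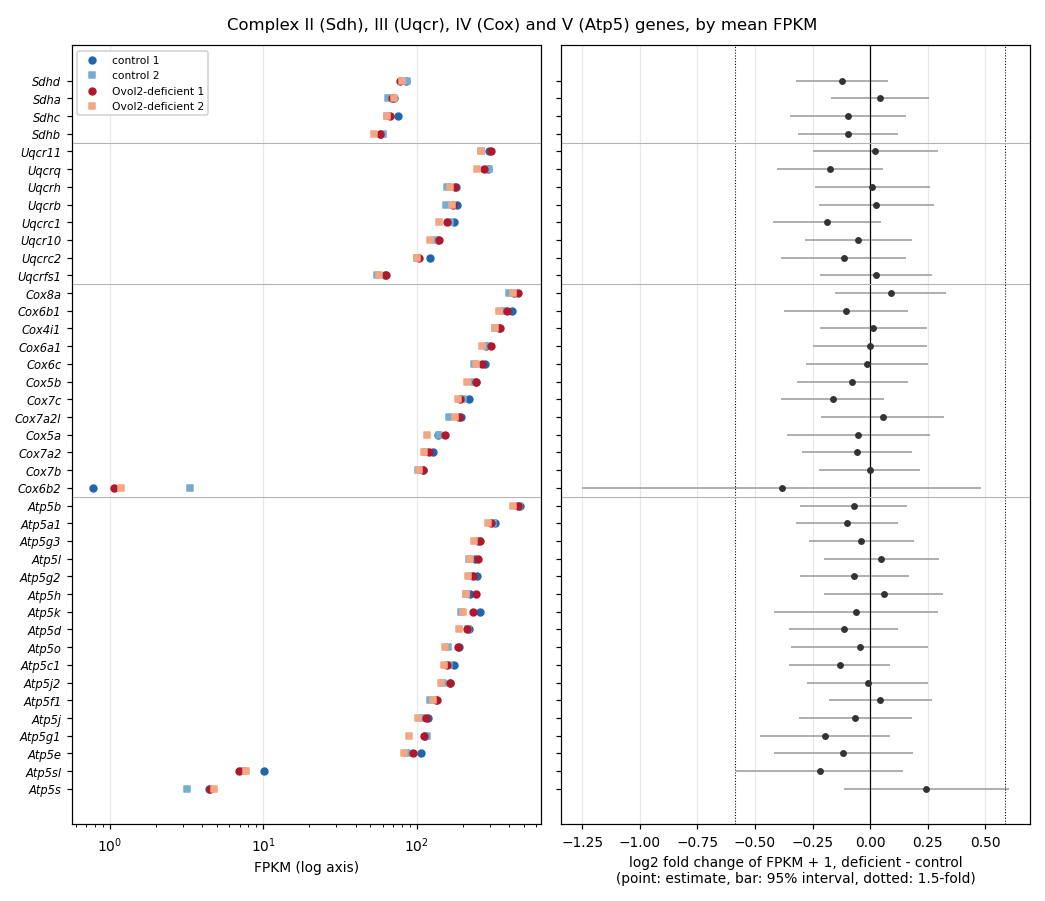
Left, FPKM (log axis) of the tested genes of complexes II to V in each of the 4 libraries, ordered by mean within a complex. Right, log2 fold change (point) with its 95% interval (bar), and dotted lines at 1.5-fold. All but Cox6b2, Atp5s and Atp5sl stand above 50 FPKM, and the 95% intervals of all 41 genes include 0.

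The complexes were then compared as sums of FPKM, a scale on which levels per length can be added. The 86 members summed to 11321 and 10467 FPKM in control cells against 11224 and 10185 in the deficient libraries, which is 2.57% to 2.68% of the whole table in each library. The ratio of the deficient to the control mean was 0.983 for all members, 1.01 for complex I, 0.952 for complex II, 0.958 for complex III, 0.985 for complex IV and 0.963 for complex V. For all but complex II, deficient library 1 lay above control 2, so that the sums overlapped between the groups. The complex II sum was 291 and 277 FPKM in control cells against 273 and 267 in the deficient libraries.

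Ratios within a library do not depend on how libraries are scaled, so each sum was also divided by that of complex I, a comparison chosen after the values were seen. Complex V over complex I stood at 0.920 and 0.928 in control cells against 0.883 and 0.873 in the deficient libraries. Complex III over complex I stood at 0.409 in both controls against 0.386 and 0.388, and complex IV over complex I at 0.788 and 0.794 against 0.771 and 0.769. For complex II it was 0.0822 and 0.0850 against 0.0757 and 0.0817. In each of these 4 ratios both deficient values lay below both controls. The deficient mean was below the control mean by 5.84% for complex II, 5.33% for complex III, 2.65% for complex IV and 4.92% for complex V. The gap between the nearest libraries of the groups was 0.564% of the control mean for complex II, and 2.12% to 5.07% for the others. For complex II the ratio of means was 0.978 without deficient library 1 and 0.905 without deficient library 2. The 4 ratios share their divisor and are not independent of each other, and no test was made of them. The groups stayed apart without Ndufs5, where the gap for complex II was 0.0952%, and with subunits alone. Those of complexes III, IV and V also stayed apart without the 3 genes of highest level in each complex, a setting that leaves Sdhb alone in complex II.

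**Figure D4:**
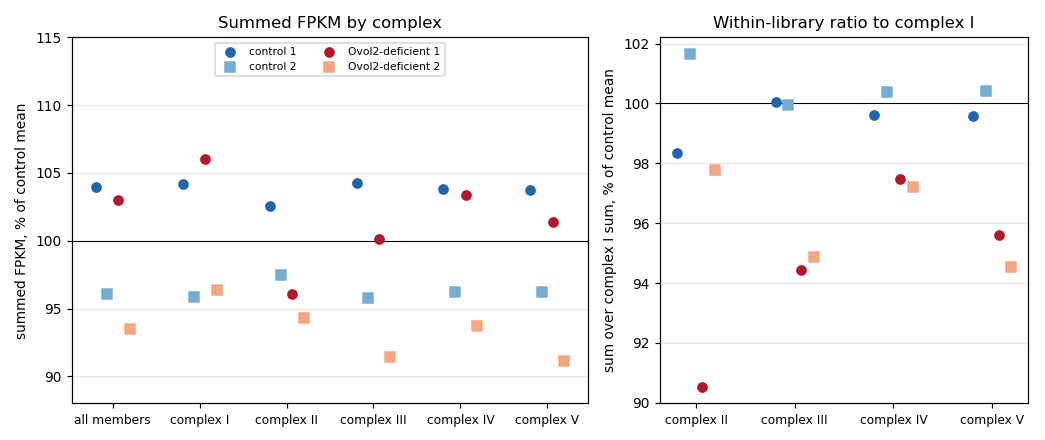
Left, summed FPKM of all members and of each complex in each library, as a percent of the control mean. Right, the sum of complexes II to V over that of complex I in the same library, as a percent of the control mean. On the left, library 1 lies above library 2 in both groups, and on the right both deficient libraries lie below both controls. Both vertical axes start above 0.

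At the median, libraries of one group differed by more than the groups did. Control 1 was above control 2 for 73 of 86 members (84.9%), and deficient library 1 was above deficient library 2 for 78 (90.7%), against 53.3% and 62.1% of all tested genes. The median log2 difference was 0.12 between the controls and 0.14 between the deficient libraries, and that over all tested genes was 0.014 and 0.049. Among tested genes with a mean of at least 50 FPKM the shares were 67.8% and 83.4%. All 11 genes of the distal membrane arm and all 7 of the stalk and membrane part of complex V had the higher value in library 1 of both groups. The complex II genes were less uniform, with 2 of 4 in each group. The cause of this difference between libraries was not tested.

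**Figure D5:**
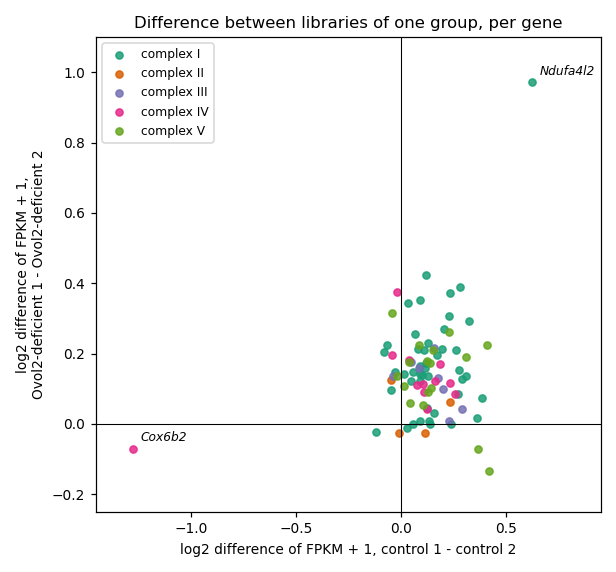
Log2 difference of FPKM + 1 between control 1 and control 2 (horizontal axis) and between Ovol2-deficient 1 and Ovol2-deficient 2 (vertical axis), 1 point per tested member, coloured by complex. Most points, 68 of 86, lie in the upper right, and the low-level genes Ndufa4l2 and Cox6b2 stand apart. Library 1 was the higher in both groups for 4040 of all 11350 tested genes. Among tested genes with a mean of at least 50 FPKM it was so for 974 of 1685.

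Promoters were looked at for what the members share beyond their names. RefSeq promoters (GRCm38.p6, 250 bases before to 50 after the start) were found for 73 of the 86 tested members. Nuclear respiratory factor 1 (NRF1), GA-binding protein (GABP) and YY1 are transcription factors known to act on respiratory chain genes, and 3 motifs were searched on both strands: GCGCA and GCGC with any 1 base between them for NRF1, CCGGAAG for GABP and AAGATGGCG for YY1. The NRF1 letters were found for 19 members (26.0%), against 12.2% of 8619 tested genes with a promoter and 5.19% of all 27025 genes in the table. The YY1 letters were found for 8 members (10.96%), against 3.83% and 1.64%, and the GABP letters for 17 (23.3%), against 21.3% and 9.93%. A match is a description of the sequence and not a bound site. None (0) of the 73 members with a promoter had TATAAA in the 50 bases before the start, and 1.96% of tested genes did, so these letters were rare in both sets. Below are the promoters of Ndufs5, the member with the highest log2 fold change, and Uqcrc1, the core subunit with the smallest adjusted p in the authors' deposited table, with NRF1 matches in capitals.
Ndufs5 (chr4:123718137-123718436, minus strand): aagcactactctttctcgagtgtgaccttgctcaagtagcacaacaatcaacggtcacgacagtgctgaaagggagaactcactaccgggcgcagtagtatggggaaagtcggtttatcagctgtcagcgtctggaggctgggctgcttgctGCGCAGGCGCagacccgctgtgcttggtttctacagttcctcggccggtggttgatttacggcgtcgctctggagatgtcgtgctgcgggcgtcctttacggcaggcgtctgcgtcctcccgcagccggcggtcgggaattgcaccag
Uqcrc1 (chr9:108936398-108936697, plus strand): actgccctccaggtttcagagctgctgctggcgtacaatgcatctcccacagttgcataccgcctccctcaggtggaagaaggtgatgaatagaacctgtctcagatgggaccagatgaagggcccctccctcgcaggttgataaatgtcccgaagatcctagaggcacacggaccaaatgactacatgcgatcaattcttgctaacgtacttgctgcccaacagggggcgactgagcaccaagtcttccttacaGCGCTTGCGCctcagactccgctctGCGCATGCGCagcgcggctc

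The pair Cox7a2 and Cox7a1 shows the sequence of a common and a restricted isoform, with CG dinucleotides in capitals. The Cox7a2 promoter held 20 of them, like the median of the tested members (20), and the Cox7a1 promoter held 7, the median over all genes in the table. No match to the 3 motifs was found in either window, which says only that these letters are not there.
Cox7a2 (chr9:79759804-79760103, minus strand): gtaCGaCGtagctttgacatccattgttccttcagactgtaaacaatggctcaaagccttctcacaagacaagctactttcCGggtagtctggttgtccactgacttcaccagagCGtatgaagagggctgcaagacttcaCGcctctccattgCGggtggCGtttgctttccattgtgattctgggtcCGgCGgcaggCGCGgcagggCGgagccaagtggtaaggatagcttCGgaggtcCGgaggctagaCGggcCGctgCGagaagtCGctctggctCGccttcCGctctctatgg
Cox7a1 (chr7:30183921-30184220, plus strand): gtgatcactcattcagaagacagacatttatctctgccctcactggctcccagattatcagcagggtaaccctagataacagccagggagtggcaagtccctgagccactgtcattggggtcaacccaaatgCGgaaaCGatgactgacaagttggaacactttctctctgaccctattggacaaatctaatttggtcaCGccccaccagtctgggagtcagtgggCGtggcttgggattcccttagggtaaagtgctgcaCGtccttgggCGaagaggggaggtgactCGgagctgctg

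Other genes of the pathway were counted by list. Of 19 tested genes of cytochrome c, coenzyme Q and the enzymes that feed it, 1 rose, 0 fell and 18 did not pass (median log2 fold change 0.0026, against -0.0014 for all tested genes). Over all tested genes 0.837% were called higher and 0.511% lower. The gene that rose was Sqrdl, the sulfide:quinone oxidoreductase, which passes electrons from hydrogen sulfide to coenzyme Q. Sqrdl stood at 12.3 and 12.8 FPKM in control cells against 24.3 and 21.4 in the deficient libraries, with close replicates and a wide gap between the groups. Its log2 fold change was 0.81 (SE 0.10, adjusted p = 0.0353), and the adjusted p in the authors' deposited table was 0.000512. Without 1 library the log2 fold change of Sqrdl was 0.73 to 0.90, and it did not pass without deficient library 1 (adjusted p = 0.182) or deficient library 2 (0.0838), nor with quantile normalization (0.0548), without the variance trend (0.0653) or without a filter (0.224). Gpd2, the mitochondrial glycerol-3-phosphate dehydrogenase and another donor to coenzyme Q, stood at 19.8 and 20.2 FPKM against 17.2 and 15.6 (log2 fold change -0.27, adjusted p = 0.207).

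Of 40 tested assembly factors outside the naming rule, 0 passed in either direction (0 at an unadjusted p under 0.05), with a median of 0.0071. Beside this list and those that follow, 1.35% of all tested genes passed in limma, and 17.4% lay at an unadjusted p under 0.05. Pet117, a factor for complex IV, had the highest log2 fold change among these 40 (1.20). It stood at 1.07e-13 and 2.85 FPKM in control cells against 5.69 and 2.04, so that the groups overlapped (adjusted p = 0.379). Without 1 library its log2 fold change was 0.23 to 2.17. In the authors' deposited table Pet117 has a mean normalized value of 0 and no fold change, so its value is uncertain. Lyrm7, which helps to insert the Rieske protein, had the lowest (-0.31, adjusted p = 0.397). Of 15 tested regulators of mitochondrial biogenesis 0 passed in limma, and 1 lay at an unadjusted p under 0.05. Tfam, which packages and transcribes mitochondrial DNA, stood at 10.3 and 9.51 FPKM against 8.32 and 7.87, without overlap (log2 fold change -0.26, adjusted p = 0.263). Esrra, a nuclear receptor that acts on respiratory genes, stood at 25.6 and 22.9 against 26.0 and 26.5 (log2 fold change 0.11). The median of this list was -0.094. The coactivator Ppargc1a was below the minimum, at 0.189 and 0.273 FPKM in control cells against 0.340 and 0.580 in the deficient libraries. Of 18 tested genes of the tricarboxylic acid cycle and pyruvate dehydrogenase 0 passed in limma, and 0 lay at an unadjusted p under 0.05, with a median of -0.0042. Citrate synthase, Cs, stood at 126 and 127 against 118 and 107 FPKM (log2 fold change -0.17, adjusted p = 0.408), and Sucla2, a subunit of succinyl-CoA ligase, at 52.1 and 47.2 against 54.0 and 54.9 (0.13). No gene (0) of these last 3 lists had an adjusted p under 0.05 in the authors' deposited table, against 4.43% of all rows with an adjusted p.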

How the data were processed

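RNA of cultured keratinocytes was measured in 4 libraries, 2 per group by the genotype label. Per the labels' protocols, full-length cDNA was amplified and tagmented with a Nextera kit, and no strand is stated. TopHat, HTSeq and the build mm10 are named, per the submitters' processing notes. The authors deposited expression in FPKM for each library, made by a tool not named in the labels. Per the file headers, a second table of the authors holds a mean normalized signal, log2 fold changes with SE, a test score, p-values and adjusted p-values for mutant against control. Depth was estimated from the lowest steps of that signal, assuming equal normalized totals.

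The table had 24487 rows after 1 repeated header line was dropped, 27 date-like symbols were left out, and rows of one symbol were summed. Genes with a mean of at least 1 FPKM (11350) were tested on log2(FPKM + 1), which understates changes of low genes, with limma 3.58.1 under R 4.3.3 (no covariate, empirical Bayes, variance trend, Benjamini-Hochberg adjustment, threshold 0.05). The model was tested on simulated data. The columns named mutant were assigned to the Ovol2-deficient group, since the labels use another code. SDs measure the spread between 2 libraries per group. Intervals and p-values use that spread together with the variance that limma shares across genes. An exact permutation of 2 against 2 libraries cannot give a p below 0.333. Coordinates are from GENCODE M21, and promoters from RefSeq.

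Members, lists and tests were chosen with earlier results of these data known. Named genes were the 2 of highest level and the highest and lowest log2 fold change of each complex, restricted and common isoforms, catalytic and ring subunits, Ovol2, and called or extreme genes of each list. A gene of the respiratory chain that this rule names is not reported here. Others named, such as those whose groups did not overlap, were chosen after their values were seen. Alternatives covered the pseudocount, the filter, 3 other scalings, the variance trend, the replicate number as a block, and each library left out.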

Additional observations from a re-analysis of the deposited data

How the results depend on the processing

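The count of members called was 0 in both directions under all alternatives run but 1: without control replicate 1, 1 member was called lower (range 0 to 1 with 1 library left out). That gene was Cox6b2, which stands near 1 FPKM and was high in control 2 alone. Over all tested genes the count of calls moved from 153 to 3 without a filter, 5 with quantile normalization, 6 without the variance trend, 44 with libraries rescaled to the same FPKM total, 80 when centred on the median gene, 267 at a mean of at least 5 FPKM, and 10 to 460 with 1 library left out, so the absence of called members is read from intervals rather than from the threshold. The median log2 fold change of complex II was -0.12 to -0.049 with 1 library left out. Those of the other complexes moved by less than the spread between replicates but changed sign: with 1 library left out the median over all members was -0.11 to 0.047, and with libraries rescaled to the same total it was 0.00080. The median of all tested genes moved by less than 0.1 under every scaling.

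Ratios of complex sums to complex I moved by more than the spread between replicates for complexes III and IV, under the alternatives given below. For complex II the ratio of means was 0.942, and 0.905 to 0.978 with 1 library left out. It was 0.920 without the 3 genes of highest level, where Sdhb alone remains. These shifts of complex II were smaller than its spread between replicates. For complex III the ratio of means was 0.947, and 0.953 without Ndufs5 and 0.940 without the 3 genes of highest level. For complex IV it was 0.973, and 0.980 without Ndufs5, 0.969 with subunits alone and 0.959 without the 3 genes of highest level.

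Genes near 0 changed sign, as did Cox6b2, which lay at -0.38 with all libraries and was high in control 2 alone. None of them was called under the alternative that changed the sign. With quantile normalization this held for Atp5b (0.026) and Cox6a1 (0.020), with libraries rescaled to the same total for Cox6a1 (0.022), and when centred on the median gene for Cox4i1 (-0.0044) and Ndufa4 (-0.015). With 1 library left out, log2 fold changes ran from -0.14 to 0.00063 for Atp5g2, -0.11 to 0.030 for Atp5g3, -0.042 to 0.068 for Cox4i1, -0.24 to 0.14 for Cox5a, -0.099 to 0.096 for Cox6a1, -1.02 to 0.25 for Cox6b2, -0.14 to 0.025 for Cox7a2, -0.075 to 0.18 for Cox7a2l, -0.094 to 0.0022 for Ndufa12, -0.071 to 0.076 for Ndufa4, -0.0033 to 0.12 for Ndufs1, -0.016 to 0.0997 for Sdha, -0.087 to 0.13 for Uqcr11, -0.088 to 0.14 for Uqcrb and -0.061 to 0.11 for Uqcrfs1. The cause was not tested.

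With the replicate number as a block, 0 members were called, the lowest adjusted p was 0.0864 (Ndufs5), and 518 genes were called over all, among them 20 of the G2 and M phase list and 8 of the fibroblast list. Deviations of same-numbered libraries correlated at 0.22 over all tested genes and 0.25 over the members. The samples share only a number, so this pairing is a hint from the data. Leaving mitochondrially encoded genes out of the total could not be run, since no such row was found. With 2 libraries per group and no counts per gene, depth sets limits mainly for the genes near 1 FPKM.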
